A study of Sus scrofa with 4 samples.

Results

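The IGF axis genes examined here were 8 in number: the ligand gene IGF1, the receptor gene IGF1R and 6 genes of IGF binding proteins, IGFBP2 to IGFBP7. They were chosen by name as members of a pathway, with earlier results of these data known. Their open chromatin was taken as every ATAC-seq peak that overlapped a gene model of RefSeq (build Sscrofa11.1) or the 20 kb on either side of it. The 8 windows held 105 union regions of 121788 in the genome, a union region being the merged extent of peaks of any library that overlapped by at least 1 bp. ATAC-seq uses the Tn5 transposase to cut and tag accessible DNA. All libraries came from porcine fetal fibroblasts of skin, the donor cells of nuclear transfer, and all cells had been serum-starved. The control group, of wild-type genotype and carrying pTK-642 alone, held 2 libraries, numbered control 1 and control 4. The BRG1 group carried pTK-642-BRG1 for over-expression and likewise held 2 libraries, BRG1 1 and BRG1 4. BRG1 is the ATPase of the BAF chromatin remodelling complex, and the comparison asks how its over-expression bears on chromatin openness. The labels do not name the promoter of the vector or say whether cultures were separate within a group, so a p-value here reflects the spread between samples alone, and that spread may be a technical one.

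Insulin-like growth factor 1 is a secreted growth factor for fibroblasts and most other cells, and it signals through the receptor tyrosine kinase IGF1R to the PI3K, AKT and mTOR kinases. In tissue fluid most IGF is bound by the IGF binding proteins, which hold it away from the receptor or deliver it on release, and which have effects of their own on cells. IGFBP7 binds IGF weakly and is often treated as a relative of the family. Serum is a source of IGF for cultured fibroblasts, and serum starvation, used to bring donor cells to rest, removes it.

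The lists held 107475 peaks in control 1 and 105954 in control 4, and 96367 in BRG1 1 and 90851 in BRG1 4. Absolute depth is unknown, and relative to control 1 it came to 93.5% for control 4, 81.2% for BRG1 1 and 92.6% for BRG1 4, read from the lowest background of each list. BRG1 4 stood apart by its wider peaks, with a median of 541 bp against 396 to 404 bp in the other libraries. Of 10 fibroblast marker genes, all 10 had a peak within 1 kb of an end of the model in every library. Of 23 matched markers of other cell types, 10 had such a peak in all 4 libraries and 12 in none, the latter including KRT5, KRT1, CDH1, PECAM1, CDH5, TEK, PTPRC and SOX10, while CD14 and MYOD1 were among the 10.

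All 8 genes carried open regions in every library. Of the 105 regions, 77 (73.3%) were called in all 4 libraries, where 61.8% of all union regions and 63.7% of those in the window of any protein-coding gene were. The regions called in all 4 were also the stronger ones. Percentiles of −log10 p were taken within the own list of each library and averaged over the libraries with a peak in the region. The median was 57.8, against 12.4 for the 28 regions missing from at least 1 library. Weak peaks lie nearest the limit of calling, so this order is partly built into the calls. No region of those 28 had a mean percentile above 40.2. A percentile of 90 means that 90% of the peaks of that library were weaker, and it moves with the length of the list, so it is given here as a description within each library. Of the 77 shared regions, 24 had both BRG1 percentiles below both control percentiles and 8 had both above, beside 34.0% and 9.03% of all regions called in all 4 libraries. The lowest of the 4 percentiles was that of BRG1 4 at 29 of the 77, BRG1 1 at 23, control 1 at 15 and control 4 at 10. Over all 75244 regions called in all 4 libraries these shares were 43.7%, 29.7%, 11.5% and 15.1% in the same order. Inside the gene models lay 73 of the 105 regions, and the flanks held 16 below and 16 above the models in coordinate order.

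The windows held 105 peaks in control 1 and 105 in control 4, and 99 in BRG1 1 and 87 in BRG1 4. Both BRG1 libraries lay below both controls, at 93.0 ± 8.49 against 105 ± 0 peaks (SD, n = 2 each, exact two-sided permutation p = 0.33, the smallest p that 2 against 2 can give). That ratio of 0.886 stood beside 0.877 for all peaks of the genome, and it rose to 0.973 with lists of equal length. The length under these peaks was 53.6 kb in control 1 and 52.5 kb in control 4, and 48.4 kb in BRG1 1 and 61.8 kb in BRG1 4. Here the BRG1 libraries lay on both sides of the controls, at 55.1 ± 9.42 kb against 53.0 ± 0.749 kb (SD, n = 2 each, exact permutation p = 1), and the ratio of 1.04 turned to 0.913 without BRG1 4. For all peaks of the genome the ratio of length was 0.989. Peak width differed between libraries, with a mean over the windows of 710 bp in BRG1 4 against 489 to 510 bp in the others. No region called in all 4 libraries was split into several peaks in BRG1 4, while 7 were in control 1, 10 in control 4 and 7 in BRG1 1. Counting regions with a peak, in place of peaks, gave 97 in control 1 and 94 in control 4, and 91 in BRG1 1 and 87 in BRG1 4, a ratio of 0.932 (exact permutation p = 0.33). The part of depth, list length and peak width in these differences was not tested beyond the equal-length lists.

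**Figure D1:**
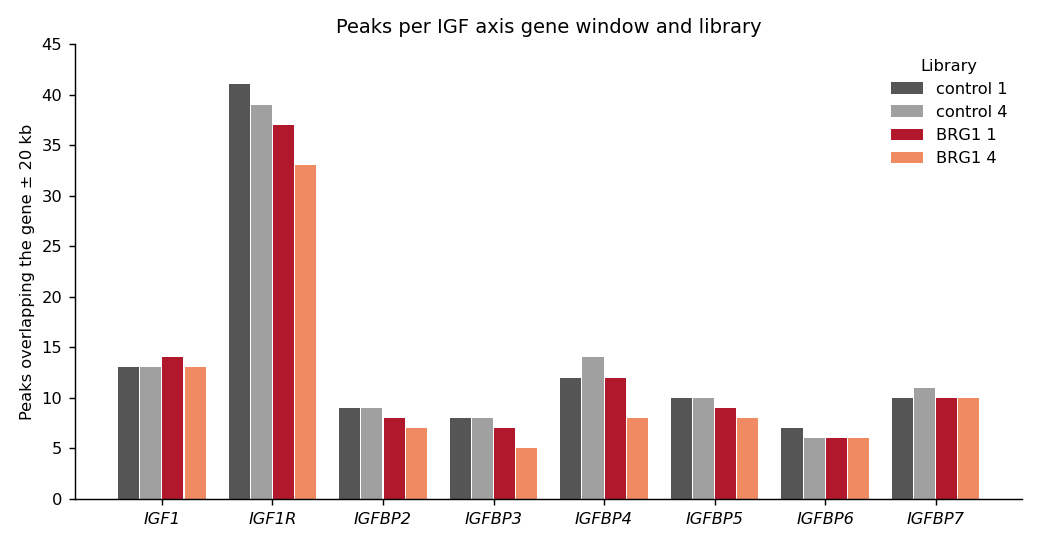
Peaks overlapping each gene model or its 20 kb flanks (vertical axis, number of peaks) for the 8 IGF axis genes, with 1 bar per library (grey, control 1 and control 4; red and orange, BRG1 1 and BRG1 4). IGF1R has the most peaks, from 41 in control 1 to 33 in BRG1 4, and IGFBP6 has 6 or 7 in every library.

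By gene, 4 of the 8 windows had fewer peaks in both BRG1 libraries than in both controls and none had more. Over all 19550 protein-coding genes on placed chromosomes, 19.0% of windows had fewer and 1.29% had more, and among the 7113 windows with at least as many peaks as that of IGFBP6, the poorest of the 8, 30.3% had fewer. The 4 were IGF1R, IGFBP2, IGFBP3 and IGFBP5, and those of IGFBP2 and IGFBP5 share 5 regions, so they are not separate observations. With lists of equal length 0 of the 8 windows had fewer and 0 had more peaks in both BRG1 libraries, where 12.8% of all windows had fewer or more. When regions were counted in place of peaks, the windows with fewer were IGF1R, IGFBP2, IGFBP4 and IGFBP5 (16.7% of all genes), and IGF1 had more in both BRG1 libraries (1.40% of all genes).

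IGF1 encodes the ligand of the axis. It lies on chromosome 5 from 81762027 to 81909253 (gene ID 397491), and no other protein-coding model reached its window. It was the only member without a peak within 1 kb of either end of the model in any library, as were 25.8% of all genes. Its nearest regions lay 2427 bp inside the lower-coordinate end, called in the BRG1 libraries only, and 3703 bp beyond the upper end, called in the controls only. The nearest regions called in all 4 libraries lay 10312 bp inside the lower end and 4342 bp beyond the upper end. The window held 13 peaks in control 1 and 13 in control 4, and 14 in BRG1 1 and 13 in BRG1 4, so the groups overlapped.

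The strongest region of IGF1 lay within the gene, 33909 bp from the upper end (81874581 to 81875344). It ranked at percentile 95.6 in control 1 and 95.1 in control 4, and 91.5 in BRG1 1 and 94.3 in BRG1 4, near the top of every list. A second strong region, 38930 bp from the lower end (81800957 to 81802347), stood at 88.0, 88.7, 84.6 and 89.3 in the same order. The model gives no exons here, so these positions cannot be placed in an exon or intron. Between the 2 lay a stretch of 72.2 kb in which only 3 weaker regions were called, of which 1 was called in all 4 libraries.

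IGF1 also held 2 of the 3 regions of the family that were called in both BRG1 libraries and in neither control. Over the genome 0.741% of union regions were of this kind, and 0.725% of those in gene windows. The first of the pair lay 2427 bp from the lower end (81764454 to 81764761) and was the farther of the 2 from any region called in all 4 libraries, at 7578 bp. Its peaks were narrow, 308 bp in BRG1 1 and 200 bp in BRG1 4, with percentiles of 33.8 and 14.4 and the authors' fold over background at 7.44 and 4.69. This region was also called in both BRG1 libraries and in neither control with lists of equal length and with a −log10 q of at least 5. Both settings only remove peaks, so neither could have added a control peak there. Equal length also leaves the list of BRG1 4 uncut, so that setting is no check on the absence in the controls. The other (81776251 to 81776492) lay 141 bp from a region called in all 4 libraries, at percentiles of 4.81 and 20.8, and did not keep that call under either setting.

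A region beyond the upper end of IGF1 (81912956 to 81913401) was called in both controls and in neither BRG1 library. It ranked at percentile 20.3 in control 1 and 0.880 in control 4. Just 194 bp away lay a region called in all 4 libraries (81913595 to 81914227), at percentiles of 77.7, 76.2, 78.6 and 58.2 in control 1, control 4, BRG1 1 and BRG1 4. None of the peaks at the 3 places of this gene called in 1 group only ranked above percentile 33.8.

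**Figure D2:**
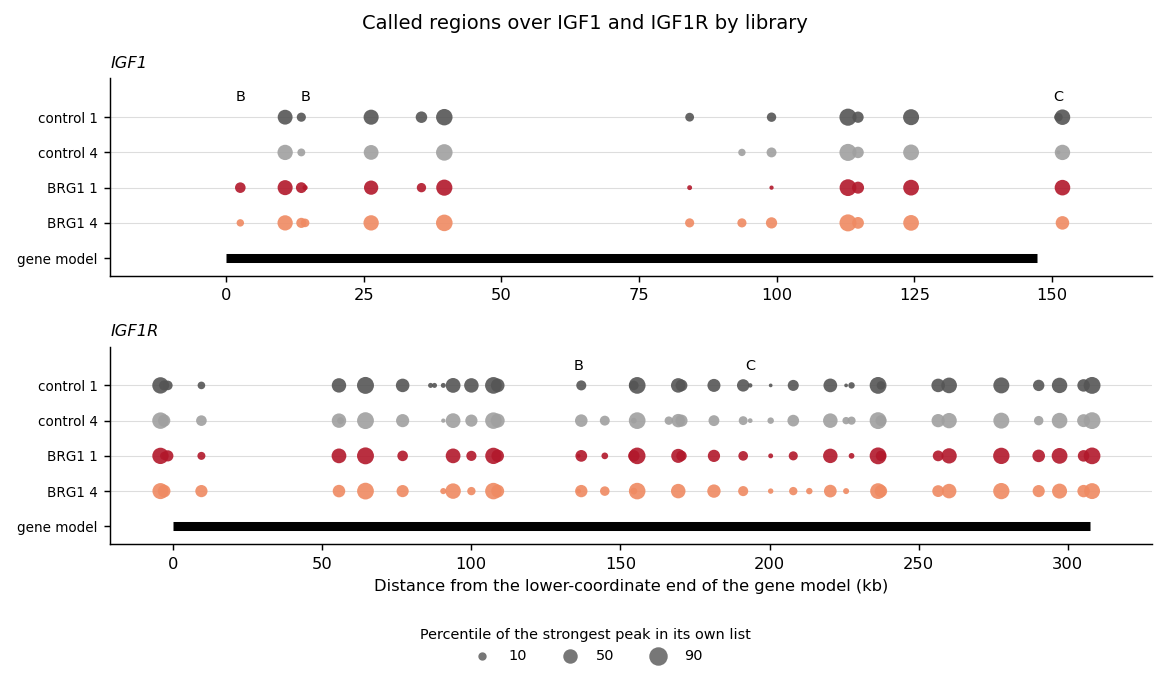
Regions called over IGF1 and IGF1R in each library, by distance from the lower-coordinate end of the gene model in kb (horizontal axis); each row is a library, the black bar is the gene model, and point size is the percentile of the strongest peak of the region within its own list. B marks regions called in both BRG1 libraries only and C those called in both controls only. The points at B and C are at percentile 33.8 or below, while points of regions shared by all 4 libraries run from the smallest size to percentile 95.6.

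IGF1R encodes the receptor, the tyrosine kinase that IGF1 activates at the cell surface. It is the longest model of the 8, on chromosome 1 from 137383623 to 137691038 (gene ID 397350), and its lower end overlaps the model of PGPEP1L by 843 bp. It held 41 regions, 38 of them inside the model, and 28 of the 41 were called in all 4 libraries. Peaks numbered 41 in control 1 and 39 in control 4, and 37 in BRG1 1 and 33 in BRG1 4, so both BRG1 libraries lay below both controls, at 35.0 ± 2.83 against 40.0 ± 1.41 (SD, n = 2 each). The order did not hold with lists of equal length, which gave 32, 34, 34 and 33 peaks and turned the ratio from 0.875 to 1.02. The length under peaks was 19.2 kb in control 1 and 20.3 kb in control 4, and 17.0 kb in BRG1 1 and 24.0 kb in BRG1 4, which had the fewest and widest peaks.

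A broad region covered the upper end of IGF1R (137691004 to 137692573), while no library had a peak within 1 kb of the lower end. The strongest peak there ranked at percentile 92.7 in control 1, 91.9 in control 4 and 90.7 in BRG1 1, and at 82.0 in BRG1 4. BRG1 4 stood below the other 3 libraries. It had 1 peak of 1395 bp there, while each of the others had 2. The stronger of those 2 was 813 to 919 bp wide, and together they covered 1310 to 1413 bp. BRG1 4 was also the lowest at a region 70486 bp from the upper end (137619511 to 137620552), at 92.0, 92.4 and 92.3 against 80.5. Every library had 1 peak at that region, of 1042 bp in BRG1 4 against 597 to 630 bp. In both places BRG1 1 was close to the controls, so the groups were not separated by more than the gap within the BRG1 pair.

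The highest-ranking other regions of IGF1R differed little between libraries. The strongest of the window lay 63891 bp from the lower end (137447514 to 137448767), at percentile 93.5 in control 1 and 92.2 in control 4, and 93.2 in BRG1 1 and 91.5 in BRG1 4. A region near the middle of the gene (137538827 to 137539677) stood at 91.0, 90.8, 89.7 and 89.3, both BRG1 values being the lower, and the widest region of the gene, 2001 bp from 137490042 to 137492042, at 90.7, 88.7, 86.7 and 88.8. These regions lie far from both ends, inside a gene that was open at many places in every library. Weaker regions called in all 4 libraries varied more. Percentiles near the top of the scale have less room to vary, so this contrast is partly built into the measure. The widest range of percentiles in any member window was at 137483361 to 137483952, at 67.1, 46.4, 30.8 and 19.4. Both BRG1 values lay below both controls there, by rank in lists of unequal length. They lay above both controls at 137673639 to 137674146, at 39.7, 26.0, 49.7 and 45.9.

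Of the 13 regions of IGF1R that were not called in all 4 libraries, 1 was called in both BRG1 libraries only (137519412 to 137519802) and 1 in both controls only (137577021 to 137577273). Over the genome 4.41% of union regions were called in both controls only, and 4.07% of those in gene windows. The BRG1 region had percentiles of 0.216 in BRG1 1 and 3.63 in BRG1 4 and lay 202 bp from a region called in all 4, and the control region had percentiles of 2.28 and 3.20. Both sat at the lower limit of what was called, and no peak was left at either place with a −log10 q of at least 5. A further 2 regions were missing from BRG1 4 only, and the stronger of them (137553950 to 137554275) stood at 42.9, 45.3 and 32.5 in control 1, control 4 and BRG1 1.

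Among the binding protein genes, IGFBP2 and IGFBP5 are neighbours on chromosome 15, IGFBP2 from 118822092 to 118850985 (gene ID 397064) and IGFBP5 from 118861816 to 118877787 (gene ID 397182), with 10830 bp between the models. IGFBP5 encodes a binding protein that also attaches to extracellular matrix, and IGFBP2 one that is abundant in the fetal circulation. The window of IGFBP2 held 9 peaks in control 1 and 9 in control 4, and 8 in BRG1 1 and 7 in BRG1 4, and that of IGFBP5 held 10, 10, 9 and 8. Between the models lay 3 regions, of which 1 was called in all 4 libraries, 1 was missing from BRG1 1 (118853288 to 118853728) and 1 from BRG1 4 (118856122 to 118856528).

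The lower end of IGFBP2 was covered by a region (118821993 to 118823123) at percentile 50.4 in control 1 and 61.6 in control 4, and 60.2 in BRG1 1 and 27.2 in BRG1 4. BRG1 4 was the lowest, with BRG1 1 within the range of the controls. A stronger region lay 8778 bp below the model (118812310 to 118813314), at 81.4, 82.1, 78.6 and 81.7, with all 4 libraries close together. The region 969 bp above the upper end (118851954 to 118852424) was called in all 4 libraries, but the peak of BRG1 1 began more than 1 kb from that end.

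IGFBP5 was open inside its upper end, with a region 824 bp from it (118876182 to 118876963). The peak there ranked at 69.1 in control 1 and 72.1 in control 4, and 62.5 in BRG1 1 and 67.8 in BRG1 4, with both BRG1 values below both controls, and its width of 734 to 760 bp was nearly the same in all libraries. The strongest region of the window lay 12089 bp beyond that end (118889876 to 118890675), at 85.6, 87.7, 83.3 and 77.7. The BRG1 libraries lay below the controls at this region by rank in lists of unequal length. A region inside the gene (118867606 to 118867897) was called in control 1, control 4 and BRG1 1 at 35.4, 35.8 and 32.5 and was not called in BRG1 4.

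IGFBP3 encodes the main carrier of IGF in blood. It is a short gene on chromosome 18 from 50002921 to 50009425 (gene ID 448812), 9061 bp from the model of IGFBP1, which also lies in part of its window. Peaks numbered 8 in control 1 and 8 in control 4, and 7 in BRG1 1 and 5 in BRG1 4, the lowest ratio among the 8 genes, at 0.750 (6 ± 1.41 against 8 ± 0, SD, n = 2 each). With lists of equal length the numbers were 7, 6, 7 and 5 and the groups overlapped.

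A pair of regions marked the lower end of IGFBP3. The stronger (50001477 to 50002172) lay 749 bp outside the model, at percentile 55.2 in control 1 and 61.2 in control 4, and 60.2 in BRG1 1 and 63.0 in BRG1 4. The other (50002726 to 50003234) covered the end itself, at 27.1, 36.8, 29.2 and 33.8. Neither separated the groups. Of the regions called in both controls and BRG1 1 but not in BRG1 4, 1 lay inside the gene (50005903 to 50006196), at 41.5, 41.0 and 17.3, and 1 lay 2096 bp below it (50000569 to 50000825), at 19.9, 24.4 and 28.8.

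IGFBP4, whose product is cleaved by the protease PAPPA to release IGF, lies on chromosome 12 from 21966524 to 21980043 (gene ID 100144490). Its window was the most densely open of the 8, at 21.5 peaks per 100 kb averaged over libraries, above 99.3% of all gene windows. The median over all genes was 6.55. The numbers were 12 in control 1 and 14 in control 4, and 12 in BRG1 1 and 8 in BRG1 4, so the groups met at 12. Counted as regions, which ignores how a region is split, they were 10, 10, 9 and 8. The gap of BRG1 4 was therefore smaller in regions than in peaks.

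A broad region covered the upper end of IGFBP4 (21979729 to 21981753), 2025 bp in extent and the strongest of the window by the mean over libraries. It ranked at percentile 77.1 in control 1 and 79.8 in control 4, and 78.4 in BRG1 1 and 75.8 in BRG1 4. It was 1 peak in control 1 and BRG1 4, of 2025 and 2016 bp, and several in control 4 and BRG1 1, so the number of peaks differed while the open stretch was called in all. In both controls a region 18430 bp below the model (21947340 to 21948094) ranked higher, at 82.7 and 80.3, and it stood at 78.3 and 66.5 in BRG1 1 and BRG1 4. The region of this window called in both controls only (21952936 to 21953266) lay 13258 bp from IGFBP4 and within 1 kb of an end of TNS4, at percentiles of 7.92 and 0.613.

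IGFBP6 encodes a binding protein that prefers IGF2 to IGF1. It lies on chromosome 5 from 18352884 to 18357225 (gene ID 100101923), is the shortest model of the 8, and shares its window with SPRYD3 and SOAT2. Peaks numbered 7 in control 1 and 6 in each of the other libraries. The strongest region of any member window was here (18338017 to 18339214), at percentile 99.0 in control 1 and 98.9 in control 4, and 98.6 in BRG1 1 and 98.5 in BRG1 4, but it lay at an end of SPRYD3, 13670 bp from IGFBP6. Inside the IGFBP6 model lay a region called in all 4 libraries (18354332 to 18355481), at 76.5, 74.2, 70.8 and 64.7, and another called in control 1 only (18353636 to 18353951), at 11.3. Both BRG1 values lay below both controls at the first. A region 309 bp below the lower end (18351751 to 18352575) stood at 73.6, 78.0, 77.4 and 54.8. BRG1 4 was the lowest there, with a peak of 825 bp against 337 to 458 bp, and BRG1 1 lay within the controls.

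IGFBP7, which encodes a secreted protein of the matrix and vessel wall, lies on chromosome 8 from 56283089 to 56357822 (gene ID 100302573), and its lower end overlaps the model of POLR2B by 279 bp. It was the only member with every region of its window, 10 of 10, called in all 4 libraries. Peaks numbered 10 in control 1 and 11 in control 4, and 10 in BRG1 1 and 10 in BRG1 4. A region across the upper end (56356963 to 56358320) was the strongest, at percentile 91.1, 91.3, 92.2 and 88.8. The regions 32498 bp inside that end (56324420 to 56325324) and 7597 bp beyond it (56365419 to 56366332) followed, at 86.5, 87.7, 85.1 and 79.3 and at 89.1, 87.5, 79.9 and 82.6. Both BRG1 values lay below both controls at these 2 regions, by rank in lists of unequal length.

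**Figure D3:**
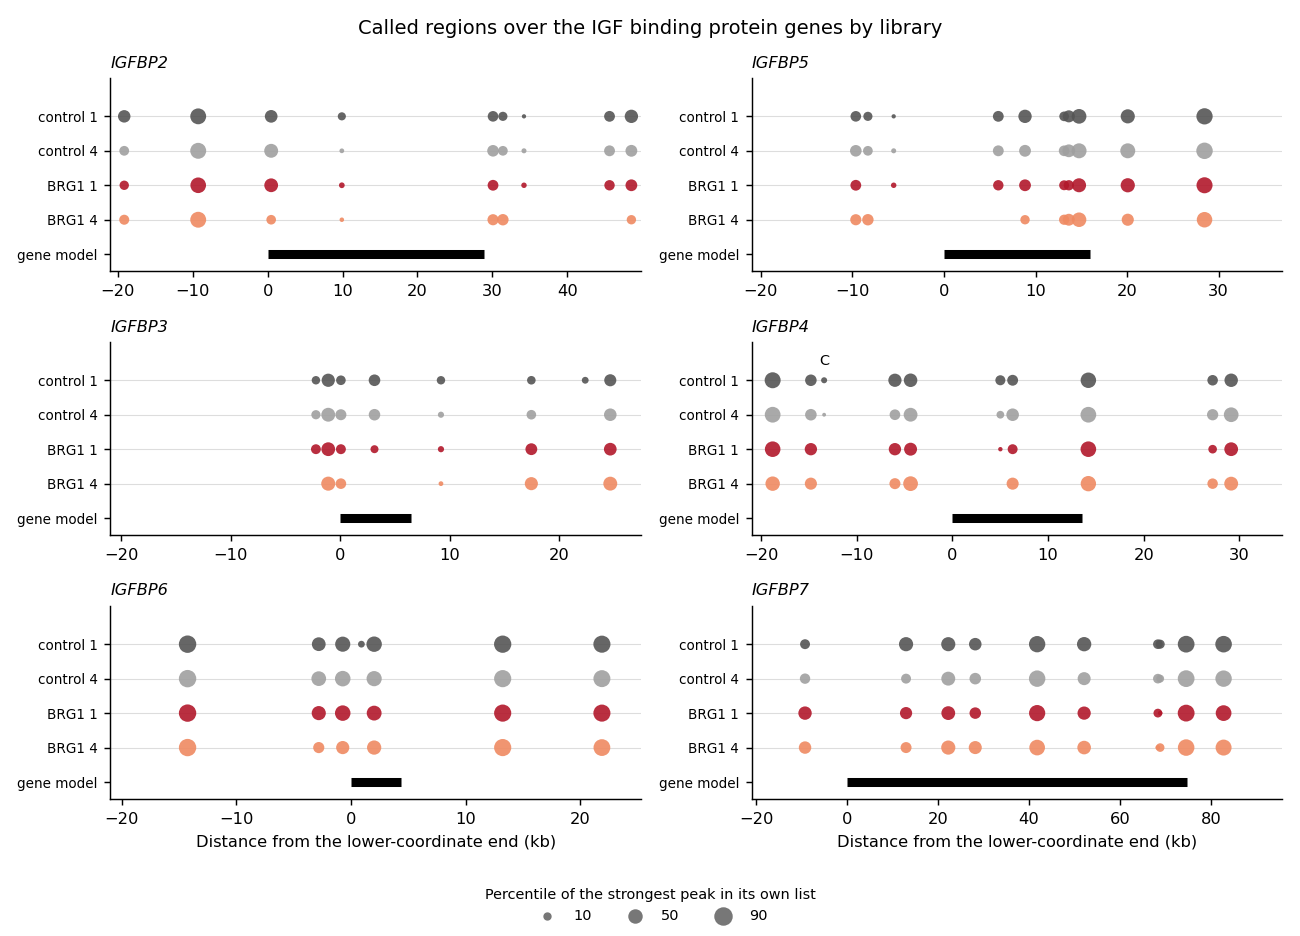
Regions called over the 6 IGF binding protein genes in each library, by distance from the lower-coordinate end of the gene model in kb (horizontal axis); rows are libraries, black bars are gene models, point size is the percentile of the strongest peak within its own list, and C marks the region called in both controls only. The 10 regions of IGFBP7 are filled in all 4 rows, while IGFBP3 has fewer points in the row of BRG1 4.

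Of the 8 genes, 7 had a peak within 1 kb of an end of the model in all 4 libraries, where 68.2% of all genes did. IGF2 and IGFBP1, which are not among the 8, had no such peak in any library. No member had an end peak in both BRG1 libraries only (0.199% of genes) or in both controls only (0.532%). With strand not given in the gene table used, an end may be the start or the finish of transcription. The strongest end peaks of IGFBP2, IGFBP3, IGFBP5, IGFBP6 and IGFBP4 had mean percentiles over the 4 libraries of 52.5, 59.9, 67.9, 71.0 and 77.8. Those of IGF1R and IGFBP7 were 89.3 and 90.9, and the median over the 13334 genes with an end peak in all 4 libraries was 89.0. Thus the end peak of IGFBP3 stood above those of 14.9% of these genes, that of IGFBP4 above 29.3% and that of IGFBP7 above 55.7%. By the mean percentile over libraries, the strongest region of the window lay at an end of the gene itself for 3 of the 8 members (IGFBP3, IGFBP4 and IGFBP7), where it did for 40.0% of the 18273 genes with a region in the window.

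**Figure D4:**
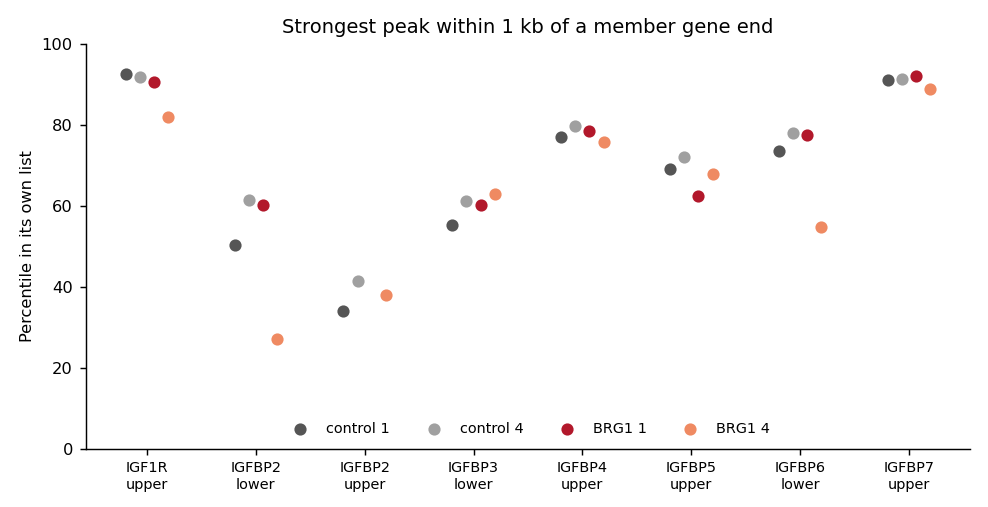
Percentile, within its own list, of the strongest peak within 1 kb of each member gene end (vertical axis, 0 to 100), with 1 point per library (grey, controls; red and orange, BRG1 libraries); lower and upper name the end by coordinate, and ends without a peak in control 1 are left out. At IGFBP2 lower, IGFBP6 lower and IGF1R upper the point of BRG1 4 lies below the other 3, while that of BRG1 1 lies close to the controls.

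The other genes of the pathway were taken from a list of 51, of which 50 were found in the gene table. An end peak was called in all 4 libraries at 41 of the 50 (82%) and in no library at 6, beside 68.2% and 25.8% of all genes. In both BRG1 libraries only, or in both controls only, 0 genes had one. By kind of gene, all 4 libraries had an end peak at 19 of 20 kinases and effectors and 6 of 8 adaptors. The growth hormone axis had 5 of 5, ligands and receptors 3 of 5, and the IGF2BP genes of mRNA binding 3 of 3. Proteases of the binding proteins and their inhibitors had 4 of 6, and carriers and relatives of the binding proteins 1 of 3. The highest mean percentiles belonged to GSK3B at 99.7, a kinase that AKT inhibits, JAK2 at 99.5, the kinase of the growth hormone receptor, MTOR at 99.1, and RHEB at 98.6, the activator of mTOR complex 1. The median of the end peaks was 86.6 over the 41 genes and 95.5 over the 19 kinases and effectors among them, beside 71.0 over the 7 members with such a peak and 89.0 over all genes. No end peak was called in any library at IGF2 and INS, which encode ligands, IGFBP1, PAPPA2 and ADAM12, which encode a carrier and proteases of binding proteins, or PIK3CA, a catalytic subunit of PI3K. All 6 had peaks elsewhere in their windows in every library. In control 1, control 4, BRG1 1 and BRG1 4 these ran from 34, 33, 31 and 28 at ADAM12 to 4, 4, 2 and 4 at PIK3CA. In peaks per window, 17 of the 50 genes (34%) had fewer in both BRG1 libraries than in both controls and 1 had more, beside 19.0% and 1.29% of all genes. Among windows with at least as many peaks as that of IGFBP6, the share with fewer was 14 of 36 in the list (38.9%) and 30.3% over all genes. With lists of equal length, added after seeing the data, 7 of the 50 had fewer (14%) and 3 had more (6%). Over all genes, 6.997% of windows had fewer and 5.806% had more with such lists. STAT5A and STAT5B share their end peak and are not separate observations. IGF2 and INS, both among the 17, have overlapping windows, and so their counts are not separate either. The window of IGFBP1, also among the 17, overlaps that of IGFBP3.

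Of the 105 regions, 3 were called in both BRG1 libraries only (2.86%, against 0.741% of all union regions). Another 3 were called in both controls only (2.86%, against 4.41%). All of them lay at IGF1, IGF1R or in the window of IGFBP4. Another 7 were missing from BRG1 4 only (6.67%, against 6.39% of all union regions) and 3 from BRG1 1 only (2.86%, against 2.73%). The 7 lay in the windows of IGF1R, IGFBP2, IGFBP3, IGFBP4 and IGFBP5, and none in those of IGF1, IGFBP6 or IGFBP7. A region that is not called was not detectable at the depth and width of that list, which does not show that it was closed.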

How the data were processed

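Each library has a narrowPeak list deposited by the authors, on Sscrofa11.1. The tools MACS2, SAMtools, BWA, Bowtie and FastQC appear without version or role, per the submitters' processing notes. How reads were shifted for Tn5, how duplicates were handled and how the caller was set is not given in the sources used here, and each can change peak number and width. In each deposited list the fold is a ratio of summit pileup over background, the −log10 p-value and −log10 q-value come from the authors' caller, and the score is the whole part of 10 times the −log10 q-value in at least 99.9% of rows. These values were used to rank, filter or describe peaks within a list and, fold and p-value together, to read relative depth.

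Gene models came from a RefSeq table without strand or exons, so the planned start peaks became peaks within 1 kb of either gene end, and the planned motif comparison of promoters was not run. Peaks were merged into union regions (overlap of at least 1 bp) with Python 3.11.15, pandas 2.3.3 and NumPy 2.4.6, and region calls, window counts and tests were tested on simulated lists. Two-sided exact permutation tests compared the group means. Relative depth is the lowest background that solved fold and p-value together. All 8 members are described. From the pathway list the rule named genes with end peaks in 1 group only, up to 6 without any and the 4 highest. The members and lists were chosen with earlier results of these data known. Alternatives were equal list length (90851 peaks), a −log10 q of at least 5, flanks of 5 or 50 kb, summits, overlap of 50%, an end window of 3 kb, each library left out and, chosen after seeing the data, regions counted in place of peaks and equal lists for the pathway windows.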

Additional observations from a re-analysis of the deposited data

How the results depend on the processing

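The ratio of peak numbers over the windows stayed below 1 under all alternatives run, from 0.829 to 0.943 with 1 library left out. The ratio of covered length ranged from 0.913 to 1.16 with 1 library left out and turned only without BRG1 4; the cause was not tested. Windows with fewer peaks in both BRG1 libraries numbered 4, against 0 with lists of equal length (where the ratio of IGF1R turned to 1.02), 2 with a −log10 q of at least 5 and 1 with flanks of 5 kb, and 4 to 6 with 1 library left out. Windows with more numbered 0, against 1 when regions were counted and 0 to 1 with 1 library left out. Regions in both BRG1 libraries only and in both controls only, 3 each, came to 1 and 1 with lists of equal length and likewise with a −log10 q of at least 5. Flanks of 50 kb gave 7 in controls only. With 1 library left out, so that fewer lists have to hold the region, they numbered 3 to 4 and 5 to 10. Members with an end peak in all libraries numbered 7 under every alternative run. With the replicate block the ratios were 0.886 for peaks (exact sign-flip p = 0.5, the smallest possible) and 1.04 for length (p = 1), and it changed no call; deviations of same-numbered libraries correlated at −0.0173 over 18273 gene windows. The motif comparison was not run. Depth in reads is unknown, and intervals for counting error were therefore left out.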
